A study of Mus musculus with 14 samples.

Results

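T-DM1-treated lung tumor nodules were compared with vehicle-treated nodules. The comparison set the 3 libraries labelled T-DM1 against the 2 labelled vehicle, 5 of the 14 libraries of the series, chosen by their treatment labels alone. All 14 came from lung tumor nodules of C57BL/6 mice with the genotype HER2 Exon20YVMA, an insertion in exon 20 of HER2, so the control nodules carried the mutant receptor as well. Treatment was long term, and the labels give no dose, duration or age. The other 9 libraries, 3 each from nodules treated with mobocertinib, with mobocertinib and T-DM1 together, or with acquired resistance to mobocertinib alone, entered the same fit and served as a second reference. The labels do not say which promoter or cell type carried the allele, or whether each library came from a separate animal, so a p-value here reflects the spread among the libraries at hand, part of which may be technical.

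T-DM1, trastuzumab emtansine, is an antibody to HER2 joined to DM1, a maytansine-type poison of microtubules. The antibody binds HER2 at the cell surface and is taken up by endocytosis. It is broken down in lysosomes, which are acidified by the vacuolar ATPase, and the freed DM1 adduct crosses the lysosomal membrane, for which the transporter SLC46A3 is needed. DM1 then binds tubulin, and dividing cells arrest in mitosis. Efflux pumps of the ABC family can export maytansine-type drugs, and the antibody part can engage Fc receptors of immune cells.

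Short mRNAs took a smaller share of the counts in T-DM1 libraries than in vehicle libraries, and long ones a larger share. The vehicle libraries stood apart from all others in this. Messenger RNAs of 500 to 1000 bases took 30.2% and 34.3% of the counts in the vehicle libraries, and 9.72%, 13.6% and 9.87% in the T-DM1 libraries. The other 9 libraries held 7.24% to 13.4%, so T-DM1 library 2 lay just above their range and the vehicle libraries far above it. Messenger RNAs over 5 kb took 4.81% and 3.57% of vehicle counts against 12.3%, 12.3% and 14% of T-DM1 counts, with 10.5% to 17.2% in the other 9. The 95% Wilson intervals of these shares were no wider than 0.04 percentage points, and cover counting error only. Library totals were 24620813 and 24863818 counts in vehicle and 22332188, 31287261 and 23129355 in T-DM1, so depth was similar, and 17279 to 23108 genes had a count. Epithelial markers were present in all 5 libraries, among them Epcam at 294 and 290 CPM (counts scaled to library size with TMM factors) in vehicle and 434, 301 and 430 CPM in T-DM1. The TMM factors raised CPM in vehicle relative to T-DM1, so a CPM here is not a share of a library's counts. Raw counts of Epcam were 4897 and 3908 in vehicle and 10232, 9737 and 10955 in T-DM1. Nkx2-1, the lung lineage factor, stood at 115 and 81.8 CPM in vehicle and 75.2, 197 and 114 CPM in T-DM1. Sex-linked genes also differed between the groups. Xist was at 0.06 and 0.0743 CPM in the vehicle libraries and at 41.8, 20.6 and 0.511 CPM in the T-DM1 libraries, while Ddx3y of the Y chromosome was at 21.8 and 21.5 CPM in vehicle and 2.54, 6.25 and 20.7 CPM in T-DM1. T-DM1 libraries 1 and 2 therefore held RNA of both Xist and Y-linked genes, and the part of sex in the results below was not tested.

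**Figure D1:**
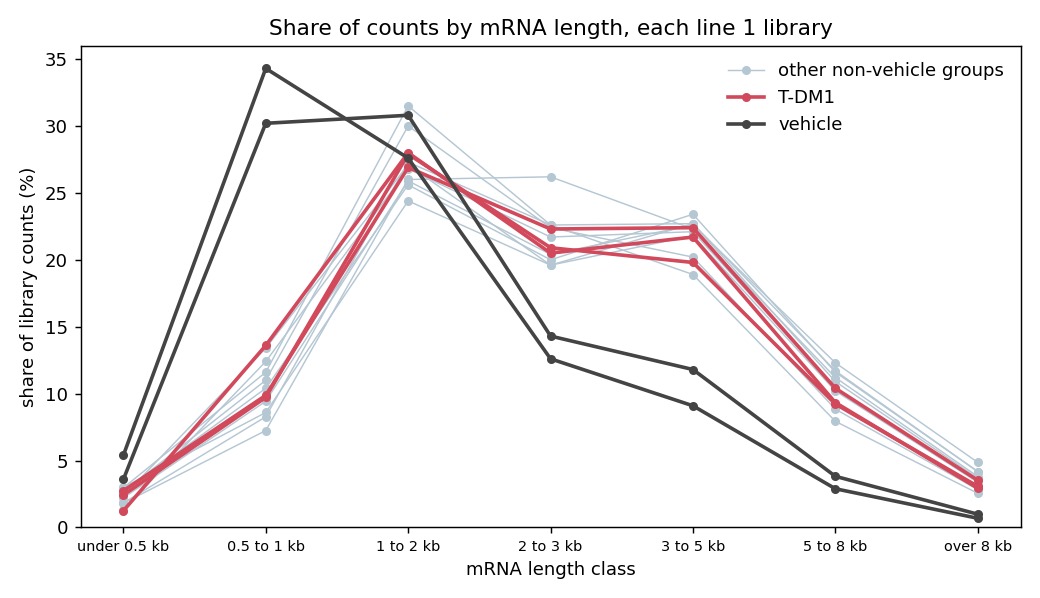
Share of each library's counts (percent, y axis) taken by messenger RNAs of 7 length classes (x axis). Each line is 1 library, and the vehicle lines lie at 30.2% and 34.3% at 0.5 to 1 kb, while the T-DM1 lines lie at 9.72% to 13.6% there, among or just above the other non-vehicle libraries.

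Of 17933 genes tested with edgeR's quasi-likelihood test, 5676 (31.7%) passed a Benjamini-Hochberg adjusted p of 0.05, the threshold for a call throughout. 2996 genes (16.7%) were higher and 2680 (14.9%) lower in T-DM1 nodules. All 3 T-DM1 libraries lay above both vehicle libraries in 32.2% of all genes, and below both in 26%. Most genes named below were picked by fold change or small p, so separation of their groups adds no support. Calls followed transcript length. Among the 945 tested mRNAs under 1 kb, 20 were higher and 517 lower, with a median log2 fold change of -1.54. Among the 2807 over 5 kb, 1155 were higher and 58 lower, with a median of 1.10. The trend ran through every class, from -2.32 under 0.5 kb to 1.33 over 8 kb, and each T-DM1 library showed it, with medians under 1 kb of -1.60, -1.41 and -1.67. Against the other 3 non-vehicle groups the T-DM1 libraries showed no such slope, with medians of 0.09 under 1 kb and -0.13 over 5 kb.

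**Figure D2:**
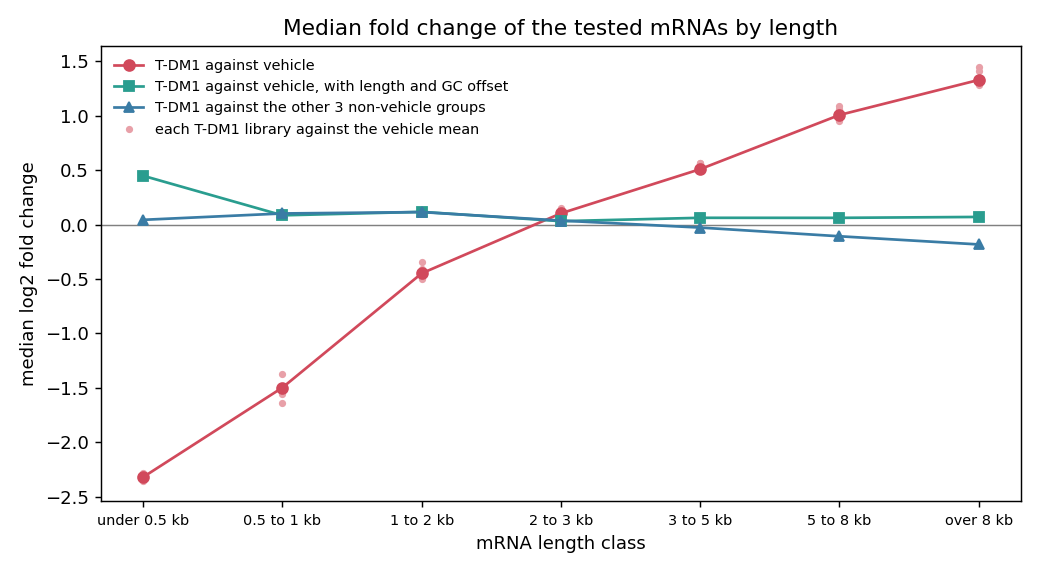
Median log2 fold change (y axis) of tested messenger RNAs in 7 length classes (x axis). The line for T-DM1 against vehicle climbs from -2.32 to 1.33, with small dots for each T-DM1 library. The line with the length and GC offset stays between 0.03 and 0.45, and that for T-DM1 against the other 3 non-vehicle groups between -0.18 and 0.11.

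Because of this slope every result was also computed with an offset that removes, in each library, the smooth trend of expression with transcript length and GC content among protein-coding genes. With the offset, 3538 of 14898 genes (23.7%) were called, 1689 (11.3%) higher and 1849 (12.4%) lower. In both fits 2376 genes were called in the same direction, 1290 higher and 1086 lower, and 22 were called in opposite directions. A biological difference that itself follows length would be removed by this offset, and the cause of the slope was not tested. Leaving out vehicle library 2 lowered the calls without the offset from 5676 to 2750. On the authors' TPM values, which are divided by transcript length, the median of all genes was 1.17 on the log2(TPM + 1) scale, against 0.18 in counts, so list medians on TPM are given relative to 1.17. Calls on TPM test against no difference, not against this shift, and a call lost there is named as such. On log2(TPM + 1), 9056 of 15759 genes were called higher and 552 lower, so list counts on TPM are to be read against these. List counts with 1 library left out are to be read against all genes too. Without T-DM1 library 1, 2486 of 17774 genes were higher and 1742 lower. The numbers were 2886 and 2676 of 17850 without T-DM1 library 2, and 2074 and 1715 of 17883 without T-DM1 library 3.

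Among genes called in both fits, those with the lowest ratio to vehicle included chemokines, an acute phase protein and ribosomal proteins. Wfdc17, a small secreted protein of myeloid cells, was at 936 and 3379 CPM in vehicle and 19, 40.1 and 31.2 CPM in T-DM1, a log2 fold change of -6.16 (SE 0.70, adjusted p = 0.00023), and -3.53 (adjusted p = 0.0012) with the offset. Ccl17, a ligand of CCR4 made by dendritic cells and macrophages, was at 798 and 142 CPM in vehicle and 12.1, 6.25 and 3.61 CPM in T-DM1, -6.01 (SE 0.71, adjusted p = 0.00024), and -3.97 (adjusted p = 0.0038) with the offset. For both genes the groups lay far apart. Saa3, an acute phase protein, was at 43.3 and 909.95 CPM and 11.7, 13.7 and 7.5 CPM, so that vehicle library 1 lay much nearer to the T-DM1 libraries than vehicle library 2 (-5.44, SE 1.05, adjusted p = 0.0026). The call of Saa3 was lost without vehicle library 2. Awat1, an acyltransferase that makes wax esters, was at 40.2 and 239 CPM and 1.61, 5.7 and 3.77 CPM (-5.23, SE 0.89, adjusted p = 0.0013). Pf4, platelet factor 4, also made by some macrophages, was at 624 and 788 CPM and 13.7, 75.3 and 10.6 CPM (-4.41, SE 0.90, adjusted p = 0.0036), and Ccl6, a myeloid chemokine, at 6741 and 9962 CPM and 113, 899 and 283 CPM (-4.27, SE 0.92, adjusted p = 0.0046). T-DM1 library 2 was the highest of its group for both. The ribosomal proteins Rpl34 and Rpl22l1 completed the 8 lowest, at -4.24 and -4.07 without the offset and -2.30 (adjusted p = 0.0099) and -1.37 (adjusted p = 0.013) with it. With the offset the log2 fold changes of Saa3, Awat1, Pf4 and Ccl6 were -3.04 (adjusted p = 0.024), -4.52 (adjusted p = 0.0044), -2.40 (adjusted p = 0.042) and -3.48 (adjusted p = 0.013). Rpl34 has near-identical copies in the genome, and its counts could be split among them. For all 8 genes the T-DM1 libraries overlapped the other 9 non-vehicle libraries, and none was called against those groups. Wfdc17, for example, was at 6.02 to 49.6 CPM in those 9 libraries.

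Of the 8 highest called genes, Krt4, Cdh3 and Zfp750 are epithelial genes and Ngfr is shared with basal epithelium. Krt4, a keratin of stratified mucosa, was at 1.56 and 3.86 CPM in vehicle and 279, 25.8 and 214 CPM in T-DM1, 6.01 (SE 1.18, adjusted p = 0.003), and 6.04 (adjusted p = 0.0043) with the offset. Cdh3, the adhesion molecule P-cadherin of basal epithelium, was at 0.42 and 0.817 CPM and 30.6, 8.39 and 29.2 CPM (5.20, SE 1.02, adjusted p = 0.0027), and Zfp750, a factor of squamous differentiation, at 0.84 and 1.63 CPM and 72.1, 10.001 and 45.9 CPM (5.12, SE 0.87, adjusted p = 0.0012). In all 3 genes T-DM1 library 2 was lowest of its group but still above vehicle. Ngfr, a neurotrophin receptor also found on basal cells, was at 1.38 and 3.49 CPM and 122, 15.3 and 95.9 CPM (5.003, SE 1.38, adjusted p = 0.017). Ifit1bl1, an interferon-induced gene, was at 3.6 and 2.3 CPM and 251, 9.66 and 47.7 CPM (5.11, SE 1.25, adjusted p = 0.0094). The call of Ngfr was lost with no filter, with limma-voom and without vehicle library 1 or vehicle library 2, and that of Ifit1bl1 with limma-voom, in the 5 libraries alone and without vehicle library 2. Pdpr, a regulatory subunit of pyruvate dehydrogenase phosphatase, was at 0.66 and 0 CPM and 13.1, 9.97 and 9.78 CPM (4.96, SE 0.85, adjusted p = 0.0013). Tigit, an inhibitory receptor of T cells and natural killer cells, had 3 counts over both vehicle libraries and 768 over the T-DM1 libraries, a ratio of 94.8 after scaling (95% counting interval 32.3 to 461). Nrg1, the last of the 8, is described with the receptors. For all 8 genes the T-DM1 libraries overlapped the other 9 non-vehicle libraries. Only Krt4 (4.83, SE 0.59, adjusted p = 0.0059) and Ifit1bl1 (4.43, SE 0.66, adjusted p = 0.015) were called against those groups.

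Erbb2, the mouse symbol for HER2, did not pass the test. Erbb2 (chromosome 11, 98412470 to 98437716, mm10) was at 148 and 142 CPM in vehicle and 313, 333 and 357 CPM in T-DM1, so all T-DM1 libraries lay above both vehicle libraries, as 32.2% of all genes did. Its log2 fold change was 1.21 (SE 0.47, adjusted p = 0.068), and 0.25 (adjusted p = 0.71) with the offset. Counts are those of the mouse symbol, and the labels do not say from which species the mutant allele came. Whether these counts measure the receptor that T-DM1 binds is therefore not known. Of 13 tested ERBB receptors and ligands, 5 were higher (38.5%) and none lower, with a median of 1.24 against 0.18 over all genes, and 4 were higher with the offset. With 1 library left out, the number higher became 2 without vehicle library 2. Nrg1, neuregulin 1, a ligand of ERBB3 and ERBB4, was at 0.24 and 0.297 CPM in vehicle and 16.5, 3.96 and 18.1 CPM in T-DM1, 5.56 (SE 0.89, adjusted p = 0.00089), and 5.44 (adjusted p = 0.0021) with the offset. The other 9 non-vehicle libraries held 3.45 to 16.4 CPM of Nrg1, and it was not called against those groups (0.22, SE 0.46, adjusted p = 0.91). Egfr, which pairs with HER2, was at 1.08 and 1.93 CPM and 40.2, 8.58 and 29.6 CPM, 4.12 (SE 0.74, adjusted p = 0.0016), and 2.81 (adjusted p = 0.015) with the offset. For both Nrg1 and Egfr the T-DM1 and vehicle groups did not overlap, and T-DM1 library 2 was closest to vehicle. Erbb3, the kinase-impaired partner of HER2, was at 57.3 and 33 CPM and 143, 194 and 182 CPM (1.94, SE 0.52, adjusted p = 0.014). Nrg2 had 1 count in vehicle and 101 in T-DM1, a scaled ratio of 37.4 (95% counting interval 6.56 to 1490.0). The call of Erbb3 was lost with the offset and without vehicle library 2, and that of Nrg2 in the 5 libraries alone, on 1 of the 3 TPM scales and without vehicle library 2.

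Genes of uptake and of the lysosome differed from vehicle in opposite directions. Against the other 3 non-vehicle groups no member of either list was called. The same held for the vacuolar ATPase, ABC transporters and microtubule regulators described below. Medians in that contrast were 0.0095 for uptake, -0.011 for the lysosome and -0.00075 for the vacuolar ATPase. ABC transporters had -0.22 and microtubule regulators -0.21, so these lists set vehicle apart rather than T-DM1. Among 25 tested genes of endocytosis and recycling, 11 were higher (44%) and 3 lower, and with the offset 6 of 24 were higher and 0 lower. In fits without single libraries, the number higher was 4 without vehicle library 2 and 7 without T-DM1 library 3, and the number lower was 0 without vehicle library 2 and 0 without T-DM1 library 1. Cav1, caveolin 1, the coat protein of caveolae, was at 33.7 and 38.8 CPM in vehicle and 259, 117 and 314 CPM in T-DM1, 2.66 (SE 0.44, adjusted p = 0.001), and 2.86 (adjusted p = 0.0019) with the offset. Its coat partner Cavin1 was at 41.7 and 107 CPM and 235, 198 and 382 CPM (1.87, SE 0.43, adjusted p = 0.0064). Caveolae are abundant in endothelium, whose markers were also higher, as described below. Ap2b1, a subunit of the clathrin adaptor AP-2, was at 69.5 and 73.6 CPM and 199.5, 179 and 208 CPM (1.45, SE 0.25, adjusted p = 0.0015), and Eea1, an early endosome tether, at 9.6 and 4.98 CPM and 27, 21.1 and 30.6 CPM (1.84, SE 0.45, adjusted p = 0.0086). The call of Cavin1 was lost in the 5 libraries alone, and that of Ap2b1 with the offset. The call of Eea1 was lost without vehicle library 2.

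Lysosomal genes were lower. Of 32 tested genes of lysosomal hydrolases and membrane proteins, 17 were lower (53.1%, against 14.9% of all genes) and none higher, with a median of -0.75. With the offset 14 were lower and none higher, with a median of -0.88. This rested on vehicle library 2, and the number lower was 1 without vehicle library 2 and 10 without T-DM1 library 1. On TPM, where all genes shift upward, 12 members were higher and none lower, while the median of 0.71 was -0.46 relative to all genes. Ctsd, the aspartic protease cathepsin D, was at 4128 and 15777 CPM in vehicle and 1134, 2667 and 1429 CPM in T-DM1, -2.51 (SE 0.51, adjusted p = 0.0035), and -2.55 (adjusted p = 0.0028) with the offset. Hexa, a subunit of the hexosaminidase that degrades gangliosides, was at 341 and 958 CPM and 166, 279 and 159.6 CPM (-1.69, SE 0.37, adjusted p = 0.0048), and Gla, alpha-galactosidase A, at 29.8 and 52.6 CPM and 13.4, 20.1 and 17 CPM (-1.29, SE 0.30, adjusted p = 0.0064). Cd63, a tetraspanin of lysosomes and exosomes, was at 779.99 and 1733 CPM and 369, 589 and 395 CPM (-1.48, SE 0.32, adjusted p = 0.0048). Ctsd shares 34.4% of its exon bases with other genes, and the strand setting of the counts is not given. In each of these 4 genes all T-DM1 libraries lay below both vehicle libraries, as in 26% of all genes. T-DM1 library 2 was highest of its group in each. The call of Ctsd was lost on all 3 TPM scales and without vehicle library 2, and that of Cd63 with the offset, on all 3 TPM scales and without vehicle library 2. The call of Hexa was lost in the 5 libraries alone, on all 3 TPM scales and without vehicle library 2, and that of Gla on all 3 TPM scales and without vehicle library 2.

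The vacuolar ATPase had 8 of 18 members lower (44.4%) and none higher, and 5 lower and 1 higher with the offset. The number lower was 3 without vehicle library 2 and 5 without T-DM1 library 1. Atp6v0b, of the membrane sector, was at 1115 and 1748 CPM in vehicle and 142, 250.2 and 146 CPM in T-DM1, -2.996 (SE 0.35, adjusted p = 0.00023), and -1.85 (adjusted p = 0.0011) with the offset. The next 3 by p were also small subunits, Atp6v0e at 325 and 535 CPM and 98.1, 151 and 115 CPM (-1.83, SE 0.30, adjusted p = 0.00094), Atp6v1g1 at 575 and 819 CPM and 114, 210.4 and 141 CPM (-2.17, SE 0.36, adjusted p = 0.0011) and Atp6v1f at 286 and 625 CPM and 102, 167 and 113 CPM (-1.84, SE 0.35, adjusted p = 0.0024). The call of Atp6v0e was lost on all 3 TPM scales, and that of Atp6v1g1 on all 3 TPM scales. The call of Atp6v1f was lost with the offset, on all 3 TPM scales and without vehicle library 2. On TPM 9 members were higher and 1 lower, with a median -0.47 relative to all genes. Markers of alveolar macrophages, cells rich in lysosomes, were lower in the same libraries (their summed share of counts was 0.799 and 0.679% in vehicle and 0.0877, 0.386 and 0.14% in T-DM1), and their part in the lysosomal values was not tested. In bulk RNA, fewer cells of a type and less RNA per cell cannot be told apart.

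Slc46a3, the lysosomal exporter of maytansine catabolites (chromosome 5, 147878437 to 147894815, mm10), was at 18.7 and 22.8 CPM in vehicle and 18.7, 17.8 and 19 CPM in T-DM1. The groups overlapped, and the log2 fold change was -0.17 (SE 0.33, adjusted p = 0.72). All 3 T-DM1 libraries lay below the other 9 non-vehicle libraries, which held 19.6 to 52.9 CPM, as 1.77% of all genes did, and that contrast did not pass the test either (-0.71, SE 0.25, adjusted p = 0.26).

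ABC transporters were higher or not called. Of 13 tested, 6 were higher (46.2%) and none lower. Their median of 1.66 became 1.30 with the 1 member that had no vehicle count set to its bound against 3 counts. With 1 library left out, the number higher became 2 without vehicle library 2 and 3 without T-DM1 library 3. Most are long mRNAs, and with the offset 3 were higher and 3 lower. Abcc1, the multidrug resistance protein MRP1, was at 5.22 and 2.23 CPM in vehicle and 57.3, 46.4 and 63 CPM in T-DM1, 3.89 (SE 0.53, adjusted p = 0.00037), and 2.72 (adjusted p = 0.0029) with the offset. Abca1, a cholesterol exporter, was at 9.24 and 6.46 CPM and 95.1, 60.3 and 98.6 CPM, 3.43 (SE 0.32, adjusted p = 0.00021), and 2.03 (adjusted p = 0.00088) with the offset. The 2 groups were well separated in both. Abcb1a, a P-glycoprotein gene, was at 5.28 and 3.86 CPM and 12.9, 14.4 and 16.7 CPM (1.68, SE 0.43, adjusted p = 0.012). Abca2, a lysosomal lipid transporter, was at 28.5 and 22.1 CPM and 40.3, 52.4 and 50.5 CPM (0.92, SE 0.27, adjusted p = 0.023), and its offset value was -0.48 (adjusted p = 0.05), which did not pass. The call of Abcb1a was lost without vehicle library 2, and that of Abca2 against a 1.5-fold change, with the offset and without vehicle library 2, T-DM1 library 2 or T-DM1 library 3.

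**Figure D3:**
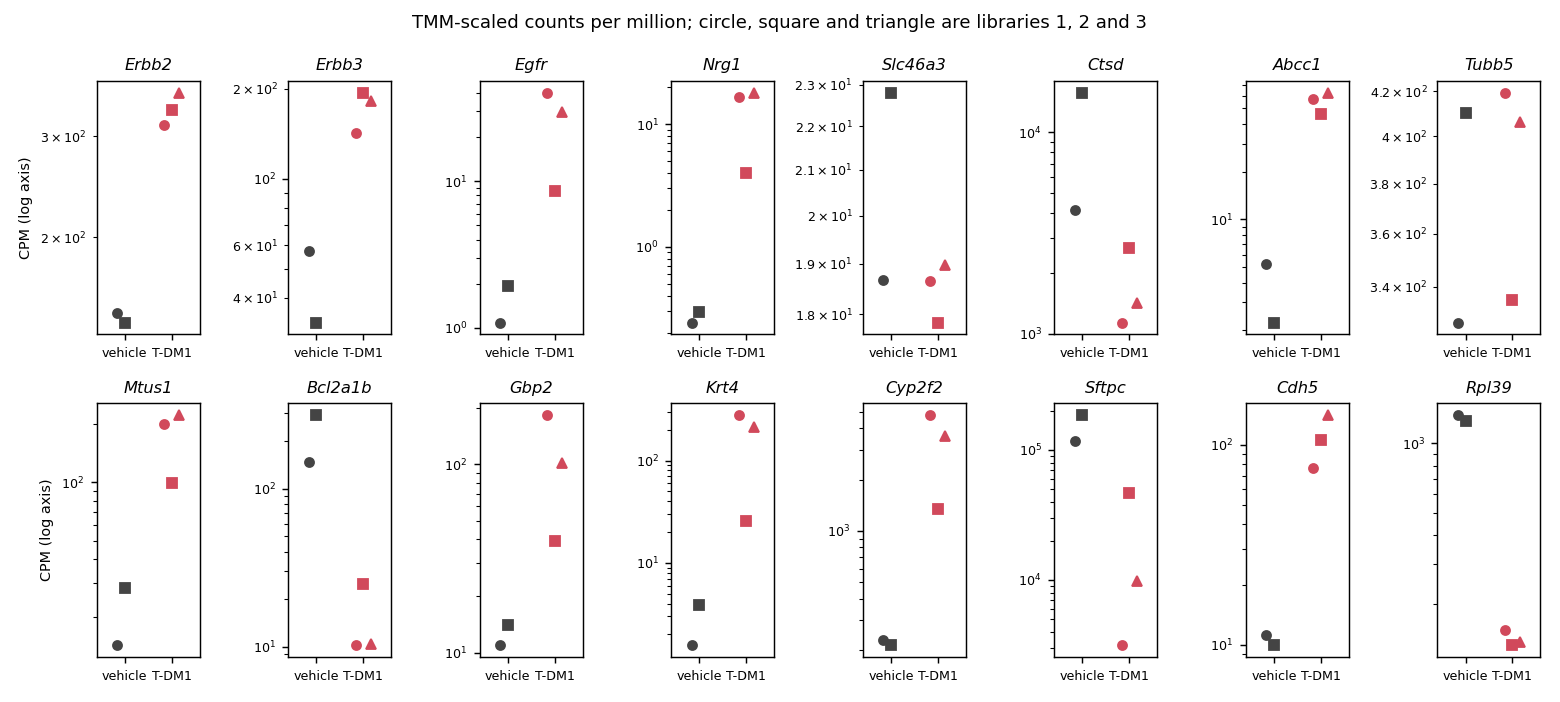
CPM (y axis, log scale, a separate range in each panel) of 16 genes named in the text in the vehicle and T-DM1 libraries (x axis), each point 1 library. Nrg1, Egfr, Gbp2, Krt4 and Cyp2f2 are higher in all T-DM1 libraries with library 2 (square) nearest to vehicle, while Slc46a3 and Tubb5 overlap.

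Tubulins, the target of DM1, had few calls. Of 17 tested isotype genes, 1 was higher and 2 were lower, 5.88% and 11.8%, both under the shares of all genes. In fits without single libraries, the number higher was 0 without vehicle library 1 and 0 without vehicle library 2, and the number lower was 1 without vehicle library 1, 0 without vehicle library 2, 1 without T-DM1 library 1 and 1 without T-DM1 library 3. Tuba1b, a widely expressed alpha-tubulin, was at 98.9 and 194 CPM in vehicle and 65, 62.1 and 53.2 CPM in T-DM1, -1.28 (SE 0.29, adjusted p = 0.0057), and -0.99 (adjusted p = 0.0091) with the offset. Tubb2a was at 104 and 95.4 CPM and 29.4, 80.9 and 39.6 CPM (-0.99, SE 0.34, adjusted p = 0.04), with T-DM1 library 2 close to vehicle. Tubb1, the beta-tubulin of platelets, had no count in vehicle and 48 in T-DM1, at least 5.93-fold higher against 3 counts over the vehicle group. The call of Tuba1b was lost on all 3 TPM scales and without vehicle library 2, and that of Tubb2a with no filter, against a 1.5-fold change, in the 5 libraries alone, with the offset, on all 3 TPM scales and without vehicle library 1, vehicle library 2, T-DM1 library 1 or T-DM1 library 3. The call of Tubb1 was lost in the 5 libraries alone, on 2 of the 3 TPM scales and without vehicle library 1 or vehicle library 2. On TPM 11 isotypes were higher and none lower, with a median 0.27 relative to all genes. Tuba1b shares 27.4% of its exon bases with other genes and resembles other alpha-tubulins, so its counts are uncertain.

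The main beta-tubulin, Tubb5, was at 327 and 410.4 CPM in vehicle and 419, 335 and 406 CPM in T-DM1, with overlapping groups and a log2 fold change of 0.07 (SE 0.24, adjusted p = 0.84). Tubb3, the class III isotype often measured in taxane resistance, was at 2.64 and 1.19 CPM and 2.25, 1.92 and 2.12 CPM (0.13, SE 0.70, adjusted p = 0.90). Tubb2b was at 6.36 and 5.5 CPM and 11.5, 14.2 and 12.6 CPM, all above vehicle, but did not pass (1.10, SE 0.45, adjusted p = 0.08), and Tuba1a was at 34 and 40.6 CPM and 51.4, 28.4 and 45.4 CPM (0.16, SE 0.44, adjusted p = 0.79).

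Genes for proteins that act on microtubules were higher more often than lower. Of 34 tested regulators, 12 were higher (35.3%) and 2 lower, and with the offset 7 were higher and none lower. The number lower was 1 without vehicle library 2 and 1 without T-DM1 library 3. Mtus1, a microtubule-binding growth suppressor, was at 14.3 and 28.5 CPM in vehicle and 201, 99.6 and 224 CPM in T-DM1, 3.03 (SE 0.46, adjusted p = 0.00061), and 2.51 (adjusted p = 0.004) with the offset. Clasp1, which stabilises microtubule plus ends, was at 12.9 and 10.2 CPM and 33.4, 52.3 and 46.8 CPM, 1.94 (SE 0.29, adjusted p = 0.00057), and 0.64 (adjusted p = 0.043) with the offset. Clip1, another plus-end tracking protein, was at 34.5 and 36.8 CPM and 115, 109 and 172 CPM, 1.89 (SE 0.29, adjusted p = 0.00075), and 0.78 (adjusted p = 0.03) with the offset. All 3 were above vehicle in every T-DM1 library, as were 32.2% of all genes. Tbca, a small chaperone of beta-tubulin folding, was at 445 and 555 CPM and 84, 102 and 85.4 CPM (-2.47, SE 0.29, adjusted p = 0.00024), but its offset value was 0.11 (adjusted p = 0.73).

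Few mitotic genes were called against vehicle. Of 24 tested genes of mitosis and the spindle checkpoint, 1 was higher and none lower, with a median of 0.00. On TPM 13 were higher, with a median of 1.19, or 0.02 relative to all genes. The 1 called, Mad1l1, which recruits the checkpoint protein MAD2 to kinetochores, was at 6.78 and 3.19 CPM in vehicle and 17.9, 18.4 and 24.4 CPM in T-DM1, 2.01 (SE 0.37, adjusted p = 0.0018), and 1.74 (adjusted p = 0.0032) with the offset. Ccnb1, cyclin B1, which drives entry into mitosis, was at 5.52 and 6.09 CPM and 8.4, 4.64 and 4.68 CPM (0.02, SE 0.61, adjusted p = 0.98). Mki67, a marker of cycling cells, was at 13.8 and 18.4 CPM and 38.6, 20.8 and 23.9 CPM, each T-DM1 library above vehicle, with 0.79 (SE 0.66, adjusted p = 0.38).

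Genes of cell death were mixed. Among 20 tested BCL2 family genes, 4 were higher (20%) and 7 lower (35%), and 2 and 5 with the offset. On TPM 12 were higher and 3 lower, with a median 0.13 relative to all genes. With 1 library left out, the number higher became 1 without vehicle library 2, and the number lower was 4 without vehicle library 2. The antiapoptotic A1 genes of myeloid and lymphoid cells made up 3 of the 4 called members with the smallest p. Bcl2a1b was at 148 and 292 CPM in vehicle and 10.2, 25 and 10.5 CPM in T-DM1, -3.85 (SE 0.54, adjusted p = 0.00041), and -2.05 (adjusted p = 0.0044) with the offset. Bcl2a1a was at 78.6 and 141 CPM and 4.41, 11.9 and 5.58 CPM (-3.90, SE 0.65, adjusted p = 0.0011), and Bcl2a1d at 12.9 and 81.5 CPM and 2.12, 2.76 and 2.48 CPM (-4.26, SE 0.73, adjusted p = 0.0013). These A1 copies are nearly identical, so how counts fall among them is uncertain. Bad, a BH3-only promoter of apoptosis, was at 296 and 248 CPM and 49.4, 80.8 and 54.5 CPM, -2.14 (SE 0.31, adjusted p = 0.00053), and -1.67 (adjusted p = 0.00061) with the offset. The call of Bad was lost on all 3 TPM scales.

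Targets of p53 had 4 of 25 higher (16%, near the 16.7% of all genes) and 1 lower, and 2 higher with the offset. In fits without single libraries, the number higher was 2 without vehicle library 1, 1 without vehicle library 2, 1 without T-DM1 library 1 and 0 without T-DM1 library 3, and the number lower was 0 without vehicle library 2 and 2 without T-DM1 library 2. Cdkn1a, the cell cycle inhibitor p21, was at 243 and 269 CPM in vehicle and 252, 409 and 307 CPM in T-DM1, with overlapping groups (0.33, SE 0.34, adjusted p = 0.47). Bax, the pore-forming death protein, was at 180.1 and 229 CPM and 75.8, 77.7 and 76.6 CPM (-1.41, SE 0.31, adjusted p = 0.0052), and -0.05 (adjusted p = 0.88) with the offset. Pmaip1, the BH3-only protein NOXA, was at 6.96 and 15.3 CPM and 44.8, 15.3 and 30.6 CPM (1.44, SE 0.45, adjusted p = 0.028), with T-DM1 library 2 level with vehicle library 2. Aen, a nuclease of apoptosis, was at 30.7 and 17.3 CPM and 68, 49.6 and 65.3 CPM (1.34, SE 0.45, adjusted p = 0.038), and Ercc5, a nuclease of DNA repair, at 13.1 and 16.5 CPM and 21, 21.5 and 32.2 CPM (0.75, SE 0.26, adjusted p = 0.04). The call of Bax was lost with the offset, on all 3 TPM scales and without vehicle library 2, and that of Pmaip1 against a 1.5-fold change, with limma-voom, in the 5 libraries alone and without vehicle library 1, T-DM1 library 1 or T-DM1 library 3. The call of Aen was lost against a 1.5-fold change, with the offset and without vehicle library 2, T-DM1 library 1 or T-DM1 library 3, and that of Ercc5 with upper-quartile factors, with the 1 CPM filter, against a 1.5-fold change, with limma-voom, in the 5 libraries alone, with the offset and without vehicle library 1, vehicle library 2 or T-DM1 library 3.

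Genes of ERK output, downstream of HER2, were taken as a list that holds feedback genes and others, and ERK activity itself was not measured. Of 21 tested, 6 were higher (28.6%) and none lower, and with the offset 5 were higher and 2 lower. The number higher was 3 without vehicle library 1, 2 without vehicle library 2 and 3 without T-DM1 library 3. Spred2, an inhibitor of RAS signalling, was at 10.6 and 7.88 CPM in vehicle and 38.4, 41.5 and 38.9 CPM in T-DM1, 2.10 (SE 0.35, adjusted p = 0.0011), and 1.80 (adjusted p = 0.0051) with the offset. Dusp4, a phosphatase of nuclear ERK, was at 12.3 and 4.16 CPM and 29.6, 52 and 36.8 CPM (2.26, SE 0.59, adjusted p = 0.013), and Dusp7, a cytoplasmic one, at 12.5 and 12.9 CPM and 30.7, 35.7 and 44.6 CPM (1.55, SE 0.46, adjusted p = 0.023). Egr1, an immediate early factor, was at 4.62 and 16.5 CPM and 51.6, 47.2 and 59.4 CPM (2.33, SE 0.57, adjusted p = 0.009). These 4 had the smallest p of the list and shared a direction, but 3 of the 4 calls were not kept in every fit. Dusp6, also in the list, went the other way, at 217 and 232 CPM in vehicle and 179.7, 141 and 162 CPM in T-DM1. Its log2 fold change was -0.48 (SE 0.27, adjusted p = 0.19), and -0.72 (adjusted p = 0.048) with the offset. The call of Dusp4 was lost without vehicle library 2, and that of Dusp7 against a 1.5-fold change, with limma-voom, with the offset and without vehicle library 1, vehicle library 2 or T-DM1 library 3. The call of Egr1 was lost with the offset and without vehicle library 1.

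Interferon-response genes were higher or not called. Interferons act through short promoter elements and induce genes that sense or restrict viruses. Of 38 tested members, 15 were higher (39.5%, against 16.7% of all genes) and none lower, with a median of 1.76. With the offset 15 of 37 were higher and none lower, with a median of 1.60. With 1 library left out, the number higher became 7 without vehicle library 2. The members' median difference from the vehicle mean was 2.15, 0.60 and 1.94 in T-DM1 libraries 1, 2 and 3, so library 2 was the lowest.

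Oasl2, an oligoadenylate synthetase-like protein, was at 6.12 and 7.36 CPM in vehicle and 109, 29.2 and 92 CPM in T-DM1, 3.51 (SE 0.62, adjusted p = 0.0015), and 3.18 (adjusted p = 0.005) with the offset. Gbp2, a guanylate-binding GTPase, was at 10.9 and 14 CPM and 183, 39.2 and 101 CPM, 3.12 (SE 0.58, adjusted p = 0.002), and 3.03 (adjusted p = 0.004) with the offset. Parp14, an ADP-ribosyltransferase, was at 18.8 and 5.94 CPM and 74, 42.1 and 74.4 CPM (2.35, SE 0.46, adjusted p = 0.0026). Ddx58, the RNA sensor RIG-I, was at 13.4 and 5.94 CPM and 42.9, 35.4 and 47.3 CPM (2.11, SE 0.45, adjusted p = 0.0043). In all 4 genes every T-DM1 library exceeded both vehicle libraries, as in 32.2% of all genes, and their calls were kept in all alternatives run. Cd274, the interferon-inducible checkpoint ligand PD-L1, was at 24 and 43 CPM and 15.5, 20.5 and 17.5 CPM, all below vehicle, but did not pass (-0.91, SE 0.50, adjusted p = 0.18).

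The promoters of interferon genes are shown because the list moved in 1 direction. In RefSeq starts on GRCm38.p6, the element made of GAAA, 2 bases of any kind and GAAA, the core of the interferon-stimulated response element, was searched on both strands in the 250 bases before the start. It was found in 350 of 12533 promoters of tested genes (2.79%) and in 16 of the 30 interferon promoters matched (53.3%). Those of members called in both fits held it in 6 of 12 (50%), and the other members in 10 of 18 (55.6%). Neither Oasl2 nor Ddx58 had it in this window, which says only that these letters were absent there. The 120 bases before the start of 4 genes that held it, chosen after their values were seen, follow 5′ to 3′ on the gene's strand, with matches in capitals, overlapping matches run together.
Gbp2, chr3:142620543-142620662, plus strand: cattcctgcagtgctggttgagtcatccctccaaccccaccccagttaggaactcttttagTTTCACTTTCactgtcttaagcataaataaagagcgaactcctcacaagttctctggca
Gbp3, chr3:142559924-142560043, plus strand: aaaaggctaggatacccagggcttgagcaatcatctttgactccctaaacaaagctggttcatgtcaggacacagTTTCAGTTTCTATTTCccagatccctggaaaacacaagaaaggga
Ifit1, chr19:34640769-34640888, plus strand: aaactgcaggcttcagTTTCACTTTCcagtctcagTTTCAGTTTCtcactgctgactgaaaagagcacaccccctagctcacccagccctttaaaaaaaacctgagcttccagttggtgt
Isg15, chr4:156200819-156200938, minus strand: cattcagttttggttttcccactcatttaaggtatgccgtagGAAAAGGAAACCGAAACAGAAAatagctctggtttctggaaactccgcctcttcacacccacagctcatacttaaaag
In Gbp2, Gbp3 and Ifit1 the element lay on the opposite strand, and in Isg15 on the gene's own. Gbp3 was at 4.14 and 6.09 CPM in vehicle and 43.1, 13.8 and 39.8 CPM in T-DM1 (2.66, SE 0.64, adjusted p = 0.0081), and Ifit1, a protein that binds viral RNA, at 5.52 and 8.62 CPM and 57, 12.3 and 31.7 CPM (2.25, SE 0.72, adjusted p = 0.031). Isg15, a ubiquitin-like protein, was at 17.4 and 56 CPM and 119.6, 25.1 and 66.4 CPM, with overlapping groups (0.94, SE 0.66, adjusted p = 0.29), and is a short mRNA whose offset value was 2.73 (adjusted p = 0.013).

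Chemokines were divided. Of 32 tested, 4 were higher (12.5%) and 9 lower (28.1%), and with the offset 6 were higher and 5 lower of 29. In fits without single libraries, the number higher was 2 without vehicle library 1 and 1 without vehicle library 2, and the number lower was 5 without vehicle library 2. On TPM 11 were higher and 4 lower, with a median -0.62 relative to all genes. Cxcl12, a stromal chemokine that binds CXCR4, was at 14.8 and 16.1 CPM in vehicle and 130.3, 74.5 and 181 CPM in T-DM1, 3.06 (SE 0.52, adjusted p = 0.0012), and 2.73 (adjusted p = 0.0035) with the offset. Ccl3, a macrophage inflammatory protein, was at 24.8 and 70.1 CPM and 1.1, 4.46 and 4.24 CPM (-3.86, SE 0.79, adjusted p = 0.0036). The call of Ccl3 was lost with the offset and without vehicle library 2. Ccl17 and Pf4, given above, were the other 2 of the 4 with the smallest p. Of the antigen presentation genes, none of 21 for MHC class I was higher and 3 were lower (14.3%, near the 14.9% of all genes), with none lower under the offset, while on TPM 13 were higher and none lower, with a median 0.39 relative to all genes.

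Fc receptors, which bind the antibody part of T-DM1, and complement had none of 24 higher and 4 lower (16.7%, near the 14.9% of all genes). The number lower was 2 without vehicle library 2. On TPM 10 were higher and 1 lower, with a median 0.21 relative to all genes. Fcgr3, the low-affinity IgG receptor III, was at 459.6 and 564 CPM in vehicle and 49.7, 132 and 88.7 CPM in T-DM1, -2.51 (SE 0.43, adjusted p = 0.0013), and -1.77 (adjusted p = 0.014) with the offset. Tyrobp, the signalling adaptor DAP12, was at 1089.9 and 2082 CPM and 76.1, 261 and 114 CPM (-3.40, SE 0.54, adjusted p = 0.00088), Fcer1g, the shared Fc receptor gamma chain, at 201 and 403 CPM and 30.1, 88.1 and 51.1 CPM (-2.42, SE 0.53, adjusted p = 0.0053), and Fcgr4, receptor IV, at 67.3 and 155 CPM and 6.49, 30.4 and 20.5 CPM (-2.54, SE 0.60, adjusted p = 0.0075). All 4 genes were lowest in T-DM1 library 1 and highest in library 2 within the group. The call of Fcgr3 was lost on all 3 TPM scales, and that of Tyrobp with the offset. The call of Fcer1g was lost with the offset, on all 3 TPM scales and without vehicle library 2, and that of Fcgr4 with the offset, on all 3 TPM scales and without vehicle library 2.

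Club cells, the secretory cells of small airways, had 3 of 13 markers higher (23.1%) and none lower, and 4 with the offset. With 1 library left out, the number higher became 1 without vehicle library 1. Cyp2f2, a cytochrome of club cells, was at 228 and 212 CPM in vehicle and 4790.2, 1336 and 3605 CPM in T-DM1, 3.88 (SE 0.79, adjusted p = 0.0035), and 4.10 (adjusted p = 0.0044) with the offset. Gabrp, a GABA receptor subunit, was at 29.95 and 57.9 CPM and 755, 88.9 and 519 CPM (3.37, SE 0.81, adjusted p = 0.0082), and Aldh1a1, a retinal dehydrogenase, at 74.5 and 54.9 CPM and 470.1, 102 and 377 CPM (2.29, SE 0.69, adjusted p = 0.025). Library 2 was the lowest T-DM1 library for all 3. The call of Gabrp was lost in the 5 libraries alone and without vehicle library 1, and that of Aldh1a1 in the 5 libraries alone and without vehicle library 1, vehicle library 2, T-DM1 library 1 or T-DM1 library 3. Scgb1a1, the main secretory product of club cells, was at 4108 and 12391 CPM and 10049, 3107 and 15204 CPM, with overlapping groups (0.20, SE 0.84, adjusted p = 0.87). Its mRNA is short and its offset value was 2.80 (adjusted p = 0.056).

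Squamous and basal markers had 3 of 12 higher (25%) and none lower, with the largest median of the lists in the plot by library apart from that of B and plasma cells, 2.87. In fits without single libraries, the number higher was 1 without vehicle library 1, 1 without vehicle library 2 and 6 without T-DM1 library 2. Besides Krt4 and Ngfr, Sox2, a lineage factor of basal cells, was at 4.38 and 7.5 CPM in vehicle and 72.7, 11.1 and 63.1 CPM in T-DM1 (3.04, SE 0.77, adjusted p = 0.01). The call of Sox2 was lost with limma-voom, in the 5 libraries alone and without vehicle library 1 or vehicle library 2. The summed share of the list was 0.00331 and 0.00948% of counts in vehicle and 0.151, 0.022 and 0.151% in T-DM1, so these genes were rare in every library, and T-DM1 library 2 lay between vehicle and the other T-DM1 libraries.

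Alveolar type 2 cells, the surfactant producers, had 1 of 18 markers lower (5.56%) and none higher. Sftpc, surfactant protein C, was at 116690.0 and 185948 CPM in vehicle and 3137, 46306 and 9884 CPM in T-DM1, -2.94 (SE 1.02, adjusted p = 0.044), and -1.48 (adjusted p = 0.31) with the offset. The count changed with the libraries used: without T-DM1 library 2, 6 markers were lower, and without any other single library none was. The call of Sftpc was lost with no filter, against a 1.5-fold change, in the 5 libraries alone, with the offset, on all 3 TPM scales and without vehicle library 1, vehicle library 2, T-DM1 library 1 or T-DM1 library 3. The list took 12.5 and 13.5% of counts in vehicle and 1.46, 10.3 and 3.01% in T-DM1, and its members' median difference from vehicle was -2.73, 0.13 and -1.79, so T-DM1 library 2 lay near vehicle and the others below it. On TPM 2 markers were higher and none lower, with a median -1.06 relative to all genes. Alveolar type 1 markers, of the gas exchange epithelium, had 3 of 14 higher (21.4%) and none lower.

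In the epithelial-mesenchymal transition list the 4 called genes with the smallest p were epithelial ones. Of 22 tested, 8 were higher (36.4%) and none lower, and 4 with the offset. The number higher was 4 without vehicle library 1, 2 without vehicle library 2, 5 without T-DM1 library 1 and 4 without T-DM1 library 3. Cdh1, E-cadherin, was at 169 and 98.4 CPM in vehicle and 653, 576 and 706 CPM in T-DM1, 2.27 (SE 0.42, adjusted p = 0.0019), and 1.57 (adjusted p = 0.0098) with the offset. Tjp1, a tight junction scaffold, was at 43.2 and 10.9 CPM and 148, 138 and 157 CPM (2.45, SE 0.55, adjusted p = 0.0061). Grhl2, which maintains epithelial junction genes, was at 30.4 and 9.36 CPM and 59.9, 69.97 and 96.3 CPM (1.92, SE 0.52, adjusted p = 0.015), and Esrp1, an epithelial splicing factor, at 37 and 32.7 CPM and 97.8, 79.5 and 104 CPM (1.43, SE 0.41, adjusted p = 0.019). The call of Grhl2 was lost in the 5 libraries alone, with the offset and without vehicle library 2, and that of Esrp1 against a 1.5-fold change, with the offset and without vehicle library 1, vehicle library 2 or T-DM1 library 3.

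**Figure D4:**
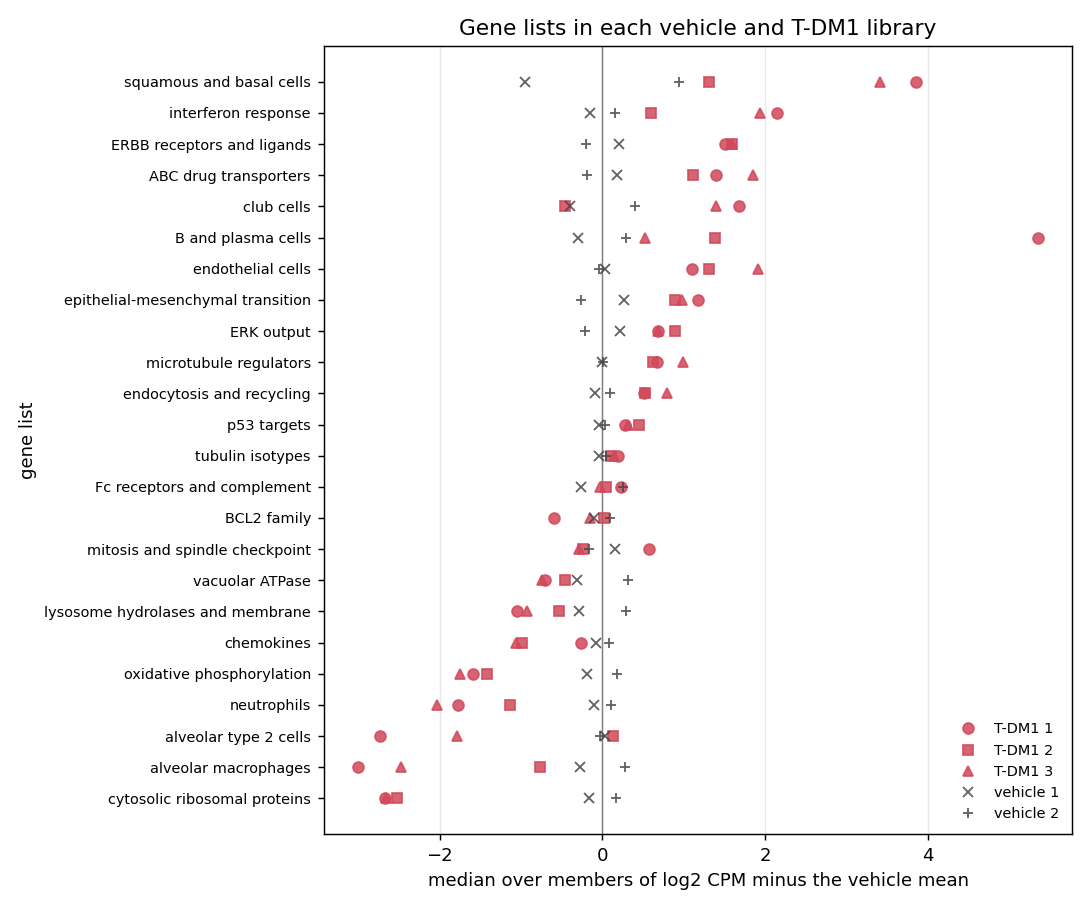
Median over the tested members of 24 gene lists (rows) of log2 CPM minus the mean of the 2 vehicle libraries (x axis), with 1 symbol per library. Cytosolic ribosomal proteins lie at -2.68, -2.52 and -2.66 in the T-DM1 libraries, while alveolar type 2 markers lie at -2.73, 0.13 and -1.79 and B and plasma cell markers at 5.36, 1.38 and 0.52.

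Immune and stromal markers moved in different directions. Alveolar macrophages, the resident phagocytes of airspaces, had 9 of 19 markers lower (47.4%) and none higher, with a median of -1.94, and 7 lower with the offset. With 1 library left out, the number lower became 2 without vehicle library 2, 5 without T-DM1 library 1, 15 without T-DM1 library 2 and 5 without T-DM1 library 3. On TPM 3 were lower and 1 higher, with a median -1.77 relative to all genes. Fabp5, a fatty acid carrier, was at 616 and 788 CPM in vehicle and 68.1, 173 and 99.6 CPM in T-DM1 (-2.63, SE 0.53, adjusted p = 0.0034), and Fabp4, a related carrier also of capillary endothelium, at 249.99 and 398 CPM and 96.6, 31.5 and 13.8 CPM (-2.78, SE 0.59, adjusted p = 0.0044). Ctsk, the protease cathepsin K, was at 354 and 1349.6 CPM and 54.7, 172 and 168 CPM, -2.70 (SE 0.63, adjusted p = 0.0072), and -2.11 (adjusted p = 0.035) with the offset. Plet1, a surface protein of airway and macrophage cells, was at 273 and 405 CPM and 57.3, 132 and 56.3 CPM, -2.05 (SE 0.49, adjusted p = 0.0081), and -1.56 (adjusted p = 0.029) with the offset. Values of all 4 lay below vehicle in each T-DM1 library, as did 26% of all genes. The call of Fabp5 was lost with the offset and on all 3 TPM scales, and that of Fabp4 in the 5 libraries alone, with the offset and on 1 of the 3 TPM scales. The call of Ctsk was lost on all 3 TPM scales and without vehicle library 2, and that of Plet1 on all 3 TPM scales and without vehicle library 2.

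Neutrophil markers had 4 of 17 lower (23.5%) and none higher, but 1 with the offset, and their number was 2 without vehicle library 2 and 7 without T-DM1 library 2. Hdc, histidine decarboxylase, which makes histamine, was at 281 and 258 CPM in vehicle and 28.7, 66.5 and 39.95 CPM in T-DM1, -2.58 (SE 0.53, adjusted p = 0.0034), and -2.74 (adjusted p = 0.0053) with the offset. Hdc is also on the list of mast cell and platelet markers, so it is not particular to neutrophils. The other 3 called markers are mRNAs under 1 kb. S100a8, a calcium-binding alarmin, was at 194 and 349.9 CPM and 15.4, 24.2 and 18.5 CPM (-3.81, SE 0.88, adjusted p = 0.0071), Wfdc21 at 161 and 193 CPM and 1.02, 18.6 and 4.71 CPM (-4.44, SE 0.97, adjusted p = 0.0053), and Retnlg, a resistin-like protein, at 9.42 and 10.9 CPM and 3.35, 2.17 and 2.48 CPM (-1.93, SE 0.67, adjusted p = 0.043). The call of Hdc was lost on all 3 TPM scales, and that of S100a8 with the offset, on 1 of the 3 TPM scales and without vehicle library 2. The call of Wfdc21 was lost with the offset, and that of Retnlg with no filter, against a 1.5-fold change, with the offset, on all 3 TPM scales and without vehicle library 1, vehicle library 2, T-DM1 library 1, T-DM1 library 2 or T-DM1 library 3. The summed share of the list ran the other way, 0.333 and 0.719% in vehicle and 3.19, 0.798 and 3.76% in T-DM1. Ltf, lactoferrin, also made by airway glands, held 98.6% of it in T-DM1 library 1.

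Endothelial markers were higher. Of 20 tested, 11 were higher (55%) and 1 lower, and with the offset 6 and none. In fits without single libraries, the number higher was 7 without vehicle library 2, and the number lower was 0 without vehicle library 1, 0 without vehicle library 2, 0 without T-DM1 library 1 and 2 without T-DM1 library 2. Cdh5, VE-cadherin, was at 11.2 and 9.96 CPM in vehicle and 76.9, 105 and 141 CPM in T-DM1, 3.34 (SE 0.60, adjusted p = 0.0017), and 2.73 (adjusted p = 0.0077) with the offset. Eng, endoglin, a TGF-beta coreceptor, was at 32.5 and 38.6 CPM and 81.9, 90.8 and 111 CPM, 1.41 (SE 0.27, adjusted p = 0.0026), and 0.91 (adjusted p = 0.026) with the offset. Kdr, the main VEGF receptor, was at 8.76 and 16 CPM and 38, 41.6 and 46.8 CPM (1.77, SE 0.36, adjusted p = 0.0036), and Tie1 at 18.5 and 19.6 CPM and 38.7, 60.2 and 71 CPM (1.57, SE 0.33, adjusted p = 0.0039). In all 4 genes the T-DM1 libraries lay above both vehicle libraries, as in 32.2% of all genes. The call of Kdr was lost with the offset, and that of Tie1 with the offset.

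B and plasma cell markers had 2 of 23 higher (8.7%, under the 16.7% of all genes) and none lower, and the number higher was 0 without vehicle library 1, 0 without vehicle library 2 and 1 without T-DM1 library 1. Pax5, the factor of B cell identity, had no count in vehicle and 246 in T-DM1, at least 30.4-fold higher against 3 counts over the vehicle group, with 9.29, 0.619 and 0.275 CPM in the 3 libraries. Ighd, the IgD heavy chain, was at 0.72 and 0 CPM and 39.9, 1.67 and 1.89 CPM (5.25, SE 1.81, adjusted p = 0.043). T-DM1 library 1 carried most of both. The call of Pax5 was lost with limma-voom, in the 5 libraries alone, on all 3 TPM scales and without vehicle library 1 or vehicle library 2, and that of Ighd with no filter, against a 1.5-fold change, with limma-voom, in the 5 libraries alone, on 2 of the 3 TPM scales and without vehicle library 1, vehicle library 2 or T-DM1 library 1.

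Groups of short, abundant mRNAs were lower without the offset. Cytosolic ribosomal proteins had 30 of 31 lower (96.8%) and none higher, with a median of -2.71, and 23 lower with the offset, with a median of -1.15. On TPM 21 were lower and 2 higher, with a median -2.20 relative to all genes. Rpl39 was at 1329.5 and 1258 CPM in vehicle and 154, 132 and 137 CPM in T-DM1, -3.20 (SE 0.28, adjusted p = 0.00021), and -1.18 (adjusted p = 0.0048) with the offset. Rpl35, Rpl26 and Rpl13 were at log2 fold changes of -3.80, -3.15 and -2.58, and at -2.58 (adjusted p = 0.00042), -1.17 (adjusted p = 0.0033) and -1.03 (adjusted p = 0.0033) with the offset. The T-DM1 values of Rpl39 fell within those of the other 9 non-vehicle libraries, 85.9 to 171 CPM. Rpl35 shares 66.2% of its exon bases with other genes, and counts of ribosomal proteins could be split among near-identical copies. Noncoding RNAs that host small nucleolar RNAs in their introns had all 12 tested lower, with a median of -3.57, and have no offset value.

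Oxidative phosphorylation genes had 20 of 31 lower (64.5%) and 1 higher, but 7 lower and 3 higher with the offset, where the median was -0.05 in place of -1.51. On TPM 6 were lower and 11 higher, with a median -1.17 relative to all genes. The number higher was 3 without vehicle library 1. Cox7a2, a small subunit of cytochrome oxidase, was at 1312 and 1579 CPM in vehicle and 124, 179 and 139 CPM in T-DM1, -3.29 (SE 0.32, adjusted p = 0.00021), and -1.44 (adjusted p = 0.0016) with the offset. Atp5g1, a c-ring subunit of ATP synthase, was at 134 and 146 CPM and 51.1, 46.8 and 49.4 CPM, -1.51 (SE 0.19, adjusted p = 0.00026), and -2.23 (adjusted p = 0.00026) with the offset. Atp5l and Atp5e, further subunits of that enzyme, were at -3.23 and -4.000, and at -0.95 (adjusted p = 0.018) and -1.30 (adjusted p = 0.0061) with the offset. The call of Atp5g1 was lost on all 3 TPM scales.

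Further lists are given by their counts, to be read against the 16.7% of all genes that were higher and the 14.9% that were lower. Receptor kinases and ligands that can bypass ERBB receptors had 12 of 28 higher (42.9%) and none lower, and 4 higher with the offset. YAP and TEAD pathway genes had 12 of 21 higher (57.1%), and 8 higher and 1 lower with the offset. Targets of FOXO factors, which PI3K signalling restrains, had 12 of 22 higher (54.5%) but 2 with the offset. Collagens and matrix had 5 of 27 higher (18.5%) and 1 with the offset, and fibroblast markers 2 of 18 higher (11.1%), shares near or under that of all genes. Genes of DNA replication had 3 of 22 lower (13.6%) and 2 with the offset, but on TPM 11 higher and none lower, with a median -0.28 relative to all genes. Glycolysis and hypoxia genes had 6 of 26 higher (23.1%) and 2 lower, T and natural killer cell markers 3 of 23 higher (13%) and 1 lower, and cardiac and skeletal muscle markers none of 16 in either direction.

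Libraries differed within both groups. Over 13815 genes, Pearson's r of log2 CPM was 0.876 between T-DM1 libraries 1 and 2, 0.93 between 1 and 3 and 0.933 between 2 and 3, as a description across genes, which are not independent. Between the 2 vehicle libraries r was 0.876, and 679 of 14026 genes with a mean log2 CPM of at least 0 in vehicle were more than 4-fold apart. With vehicle library 1, r was 0.723, 0.859 and 0.779 for T-DM1 libraries 1, 2 and 3, so library 2 was the closest to vehicle. Of 14174 genes expressed in T-DM1, 272 stood more than 4-fold above both other libraries in library 1, 161 in library 2 and 9 in library 3. Those more than 4-fold below both others numbered 55, 264 and 74.

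The 10 genes with the largest spread among T-DM1 libraries included markers of B and plasma cells, heart muscle and macrophages. Itln1, intelectin 1, a lectin of mucus-secreting and mesothelial cells, was at 1622, 10.03 and 1.96 CPM in T-DM1 libraries 1, 2 and 3, and 2.7 and 0.223 CPM in vehicle. Myh6, the cardiac myosin heavy chain, was at 178, 1.3 and 2.36 CPM, Jchain, which joins IgA and IgM of plasma cells, at 3424, 190.3 and 66.3 CPM, and Cd79a, of the B cell receptor, at 77.4, 4.06 and 3.18 CPM. All 4 were highest in library 1. Cardiac and skeletal muscle markers took 0.0722, 0.00543 and 0.00279% of counts in the T-DM1 libraries and 0.00874 and 0.00162% in vehicle, where Myl2, Acta1 and Myh4 were at 0. B and plasma cell markers took 4.62, 0.492 and 0.29% and 0.134 and 0.153%. Calml3, a calmodulin-like protein of squamous epithelium, was at 68.4, 1.39 and 10.8 CPM, Reg3g, an antibacterial lectin, at 4258, 114 and 320.2 CPM, and Gp2, a glycoprotein of secretory and M cells, at 579.9, 15.7 and 83.7 CPM, each highest in library 1 and lowest in library 2. Library 2 was instead the highest for Atp13a4, a P-type ATPase, at 1.95, 90.8 and 4.4 CPM, Cela1, an elastase, at 1.74, 63.2 and 4.79 CPM, and Marco, a scavenger receptor of alveolar macrophages, at 3.6, 79.5 and 3.18 CPM. For Atp13a4 the vehicle values of 101 and 48.4 CPM bracketed that of library 2. None of the 10 genes with the largest spread passed the test against vehicle. The part of the marker shares in these differences was not tested.

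The T-DM1 nodules were also set against the other 3 non-vehicle groups, where few genes were called. This contrast holds no vehicle library and shares only the T-DM1 libraries with the one above. Of 17933 genes, 71 were called (0.396%), 69 higher (0.385%) and 2 lower (0.0112%), and 2117 had an unadjusted p under 0.05. In 56 of the 71 the 3 T-DM1 libraries lay outside the range of the other 9. Over all genes 2.12% lay above that range and 1.77% below it. The 71 were called from the same libraries, so their separation adds no support. The number called was 14 without T-DM1 library 1, 156 without library 2 and 13 without library 3. DESeq2 called 511 and the offset fit 183. Of the 69 higher genes, 17 were also higher than vehicle, and 31 had a log2 fold change against vehicle between -1 and 1.

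Among called genes without overlap and with a mean log2 CPM of at least 2, a keratin and a cornified envelope gene differed most here. Cxcl3, a chemokine under that mean and chosen after its values were seen, differed more, by 6.58 (SE 0.65, adjusted p = 0.0024). It was at 8.35, 40.9 and 4.09 CPM in T-DM1 against 0 to 0.706 CPM in the other 9 libraries. Vehicle held 79.3 and 25.6 CPM of Cxcl3. Krt6a, a keratin of wounded and squamous epithelium, was at 429, 51 and 373 CPM in T-DM1 against 0.249 to 37.3 CPM in the other 9 libraries, a log2 difference of 5.66 (SE 0.81, adjusted p = 0.014), with 3.48 and 46.5 CPM in vehicle. It resembles other Krt6 genes, and its counts are uncertain. Ivl, involucrin, a scaffold of the cornified envelope, was at 30.9, 48.4 and 37.7 CPM against 0.255 to 4.09 CPM (3.91, SE 0.49, adjusted p = 0.0059), with 53.2 and 33.9 CPM in vehicle, so T-DM1 and vehicle libraries overlapped and the other 9 were lower. Of the 12 squamous and basal markers 3 were called higher, Krt4, Krt6a and Sprr1a, and none lower, with a median of 3.03 against 0.01 over all genes. Ivl was called in every alternative run for this contrast. Krt6a was not called without T-DM1 library 1 or 3 (log2 differences of 5.23 and 5.41).

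Arg1, arginase 1, an enzyme of the urea cycle found in some macrophages, was at 102, 29.4 and 80.3 CPM against 2.29 to 20.02 CPM (3.11, SE 0.43, adjusted p = 0.012), with 42.3 and 65.7 CPM in vehicle. Sptssb, a small subunit of serine palmitoyltransferase, was at 23.8, 12.5 and 18.8 CPM against 0.663 to 5.36 CPM (2.86, SE 0.49, adjusted p = 0.029). Isg15 was at 119.6, 25.1 and 66.4 CPM against 3.73 to 22.2 CPM (2.72, SE 0.43, adjusted p = 0.02). Like Krt6a, these 3 were not called without T-DM1 library 1 or without library 3. The 2 lower genes were Atp7b, a copper-exporting ATPase, at 30.7, 38.2 and 35.5 CPM against 83.3 to 234 CPM (-2.03, SE 0.30, adjusted p = 0.014), with 18.6 and 21.3 CPM in vehicle, and Prob1, a proline-rich basic protein, at 17.9, 12.6 and 20.8 CPM against 25.5 to 47.2 CPM (-1.17, SE 0.22, adjusted p = 0.043). Atp7b was not called without T-DM1 library 1 or 3, and Prob1 not without any 1 of the 3.

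Several mitotic genes were higher than in the other non-vehicle groups. Of 24 tested, 6 were called higher and none lower, with a median of 1.75. Over all genes 0.385% were higher, with a median of 0.01. The calls of this contrast depended on single libraries, and 71 over all genes became 14 without T-DM1 library 1 and 13 without library 3. Ccnb1 was at 8.4, 4.64 and 4.68 CPM in T-DM1 against 0.349 to 2.16 CPM (2.56, SE 0.41, adjusted p = 0.02), and the vehicle values of 5.52 and 6.09 CPM lay in the T-DM1 range. Cdc20, which activates the anaphase-promoting complex, was at 18.2, 17.3 and 14.9 CPM against 1.88 to 4.91 CPM (2.32, SE 0.25, adjusted p = 0.0024), with 24.2 and 23.3 CPM in vehicle. Cdk1, the mitotic kinase, was at 25.6, 16.8 and 12.2 CPM against 1.85 to 7.93 CPM (1.97, SE 0.36, adjusted p = 0.036). Cdc20 and Cdk1 were chosen after their values were seen, and the other 3 called were Ccnb2, Plk1 and Tpx2. Mki67 did not pass, at 38.6, 20.8 and 23.9 CPM against 1.54 to 22.3 CPM (1.95, SE 0.44, adjusted p = 0.074).

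Of the 21 ERK output genes 3 were called higher than in the other 9 libraries and none lower, against 0.385% of all genes higher. The 3 were the phosphatases Dusp4, Dusp5 and Dusp6, while Dusp7, a further ERK phosphatase, was at 30.7, 35.7 and 44.6 CPM CPM against 28.8 to 130.5 CPM CPM, which overlap. Dusp6, a cytoplasmic ERK phosphatase, was at 179.7, 141 and 162 CPM in T-DM1 against 34.1 to 85.4 CPM in the other 9 libraries (1.70, SE 0.19, adjusted p = 0.0024), with 217 and 232 CPM in vehicle. Dusp5, a nuclear one, was at 22.6, 33.4 and 24.8 CPM against 4.16 to 10.7 CPM (1.98, SE 0.22, adjusted p = 0.0024), with 37.9 and 24.8 CPM in vehicle. Dusp4 was at 29.6, 52 and 36.8 CPM against 3.74 to 22.1 CPM (2.05, SE 0.36, adjusted p = 0.032), and unlike Dusp5 and Dusp6 was also called higher than vehicle. Among ligands Areg, amphiregulin, which binds EGFR, was at 168, 208 and 215 CPM against 11.2 to 111 CPM (2.43, SE 0.45, adjusted p = 0.038). Dusp5, Dusp6 and Areg were chosen after their values were seen. All 9 other libraries came from nodules exposed to mobocertinib, an inhibitor of EGFR and HER2 kinases. The 3 combination libraries among them came from nodules given T-DM1 as well. In this contrast, which pools the 3 groups, an effect of T-DM1 and one of mobocertinib cannot be told apart.

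**Figure D5:**
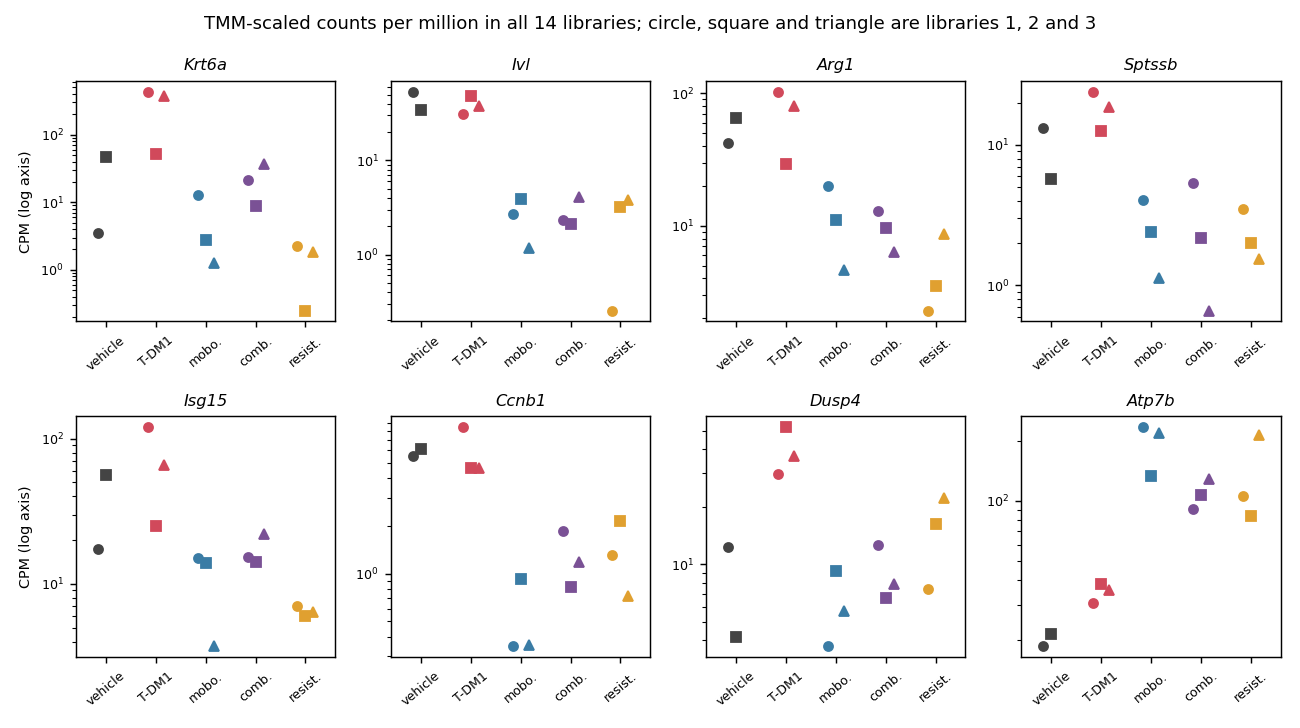
CPM (y axis, log scale, a separate range in each panel) of 8 genes in all 14 libraries, grouped by treatment (x axis, with mobocertinib, combination and resistant abbreviated), each point 1 library. For Ivl, Ccnb1 and Dusp4 the T-DM1 libraries lie above all 9 libraries of the other non-vehicle groups, and for Atp7b below them, while Ivl and Ccnb1 are at the level of vehicle.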

How the data were processed

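RNA of lung tumor nodules was sequenced in 14 libraries. The authors deposited whole-number counts for 55291 gene symbols and TPM values. STAR, RSEM and mm10 are named per the submitters' processing notes. Versions, annotation and strand setting were not found in the labels or headers. All 14 columns were matched by title.

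The members and lists were chosen with earlier results of these data known, and the described lists and the exact form of the offset were set after values were seen. Counts were fitted in edgeR 4.0.16 under R 4.3.3 (TMM factors, filterByExpr, robust quasi-likelihood, 14 libraries, 9 residual degrees of freedom), with Benjamini-Hochberg adjustment over all genes. The SE is the log2 fold change divided by the square root of F. Lengths, GC, positions and exon overlaps came from GENCODE M21 on mm10, with 53180 symbols matched to 1 gene and the principal transcript preferred. The offset was a robust regression of log2 CPM on natural splines (5 degrees of freedom) of log length and GC, over protein-coding genes with a mean log2 CPM of at least 1.

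Named genes were chosen among protein-coding genes without predicted names or immune receptor segments. They were the 8 highest and 8 lowest called in both fits without overlap and with a mean log2 CPM of at least 2. Also named were up to 4 called members by p of each described list (2 where none was called) and a panel of 17 genes. Next came the 10 with the largest SD among T-DM1 libraries at a mean log2 CPM of at least 3. The last were up to 5 highest and 5 lowest called against the other non-vehicle groups without overlap. These also had a mean log2 CPM of at least 2. Alternatives were upper-quartile and RLE factors, other filters, glmTreat, DESeq2 1.42.0, limma-voom and limma-trend (limma 3.58.1) on log2(TPM + 1) or log2(TPM + 0.1), the 5 libraries alone, the offset, and leaving out each library. Replicate pairs were compared by chi-square over genes with at least 20 counts, and none was a duplicate, with ratios of chi-square to its degrees of freedom from 174 to 504. The scripts were tested on simulated data for T-DM1 against vehicle. Without the offset, 2 of 50 genes changed 2-fold were called, 25 of 50 changed 4-fold and 45 of 50 changed 16-fold. A gene that was not called may therefore still differ.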

Additional observations from a re-analysis of the deposited data

How the results depend on the processing

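The number called against vehicle moved most on TPM, and fell with the offset and without vehicle library 2. All tested genes had a median of 1.17 on log2(TPM + 1), 1.69 on log2(TPM + 0.1) and 0.26 on TPM with no filter. The number called, 5676, was 3643 against a 1.5-fold change, 9608 on log2(TPM + 1), 10343 on log2(TPM + 0.1), 9082 on TPM with no filter, 3745 in the 5 libraries alone, 3538 with the offset and 2750 to 5784 with 1 library left out. The number higher, 2996, was 1840, 9056, 9837, 8447, 1760, 1689 and 1435 to 3258 in that order. The number lower, 2680, was 552, 506 and 635 on the 3 TPM fits and 1315 to 2676 with 1 library left out. Against the other 3 non-vehicle groups the number called, 71, was 511 with DESeq2, 183 with the offset and 13 to 156 with 1 library left out. The number higher, 69, was 403, 156 and 13 to 154, and the number lower, 2, was 108, 27 and 0 to 2, and 6 with limma-voom. The median under 1 kb, -1.54, was -1.68 with upper-quartile factors, -1.38 with no filter and -1.69 to -1.17 with 1 library left out, and 0.0897 with the offset. On the 3 TPM fits it was 0.0725, 0.0730 and 0.0688, which is -1.10, -1.62 and -0.19 relative to all genes. The median over 5 kb, 1.10, was 0.96 with upper-quartile factors, 1.26 with no filter, 0.999 with the 1 CPM filter, 1.68, 2.42 and 1.53 on the 3 TPM fits (0.51, 0.73 and 1.28 relative to all genes), 0.0629 with the offset and 1.06 to 1.39 with 1 library left out. The offset removes the length trend by construction, and the TPM fits kept it. Other causes were not tested.

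Some named genes changed sign. On log2(TPM + 1), log2(TPM + 0.1) and TPM with no filter, Tuba1b was at 1.36, 1.37 and 1.36, Tubb2a at 0.614, 0.624 and 0.614, Cd63 at 0.303 in all 3, Hexa at 0.140, 0.141 and 0.140, Gla at 0.384, 0.436 and 0.384, and Bax at 0.495, 0.498 and 0.495. Relative to the median of all genes Tuba1b was at 0.19, -0.32 and 1.10, Tubb2a at -0.56, -1.07 and 0.36, Cd63 at -0.87, -1.39 and 0.046, Hexa at -1.03, -1.55 and -0.12, Gla at -0.79, -1.25 and 0.13, and Bax at -0.68, -1.19 and 0.24. Slc46a3, not called without TPM, was at 0.842 and 0.907, or -0.33 and -0.78 relative to all genes. With the offset Tbca was at 0.106, Abca2 at -0.478 and Retnlg at 0.229. Of the single-gene values under all alternatives, 1764 kept direction and side of the threshold, 201 lost the call, 41 gained one and 23 changed sign.

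No paired analysis was possible because the replicate numbers follow accession order only. With 2 vehicle libraries, leaving out 1 leaves a lone library that is assumed to vary like the other groups.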
